A study of Saccharomyces cerevisiae with 18 samples.

Results

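The genes described here are the 56 that encode the proteins of the small (40S) subunit of the budding yeast ribosome, RPS0A to RPS31, taken by their systematic identifiers from the 7036 features counted in each library. They encode 32 proteins, 24 of them from a pair of genes (the A and B copies) and 8 from a single gene (among them RPS2, RPS3, RPS12, RPS13, RPS15, RPS20 and RPS31). All 56 had enough counts to be tested, and the smallest count of any of them in a library was 2624, for RPS14B.

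Poly(A) RNA was sequenced from 6 libraries each of 3 Saccharomyces cerevisiae strains of S288C background. In all of them NUP60, which encodes a protein of the nuclear basket of the nuclear pore, was fused to GFP, and no untagged strain was among them. K467N has asparagine in place of lysine 467 of Nup60, as a mimic of the acetylated residue, and the S. kluyveri HIS3 marker. K467R has arginine there, as a mimic of the deacetylated residue, and the HIS3MX6 marker. WT keeps the lysine and has the S. kluyveri HIS3 marker, so in comparisons with K467R the substitution and the marker cannot be told apart. The question behind the series was whether this acetylation has a general role in transcription. Overnight cultures in YP with 2% glucose and adenine had been diluted to an OD of 0.1 and were harvested, still asynchronous and at 25 °C, once they had reached an OD of 0.6 to 0.7. Libraries are numbered 1 to 6 within a strain in the order of their accessions, which pairs nothing across strains. The labels do not state whether the libraries of a strain were grown as separate cultures, so p-values measure only the spread between these samples, which may be technical.

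The small subunit binds mRNA, scans for the start codon and checks the pairing of codon with anticodon, and a subunit holds a single molecule of each of its proteins. In growing yeast the genes for these proteins are among the most strongly expressed, and Rap1, Fhl1 with its coactivator Ifh1, Sfp1 and Hmo1 tie their transcription to nutrient signals from the TOR and protein kinase A pathways. Most of the genes are duplicated, many carry an intron, and some of the introns let the protein limit the expression of its own gene.

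Gene counts per library were 14061184 to 17111951 in K467N, 12910660 to 15492932 in K467R and 12395725 to 19093010 in WT. Reads with several alignments, 18.3 to 19.6% of sorted reads, were not counted on genes. In 153 pairs of libraries the chi-square per degree of freedom was at least 2.52, so none looked like 1 library deposited again. Summed levels in CPM (counts per 1000000, scaled by TMM) were 1140.2 to 1423 for 7 markers of MATa cells and 22.9 to 41.1 for the 2 tested of 4 markers of MATalpha cells.

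Promoters were searched first for the core of the Rap1 site, because Rap1 is the factor best known for binding these genes. In the R64 reference genome (RefSeq) the core ACCCNNACA stood on either strand in the 500 bases before the start codon of 18 of the 56 genes (32.1%), against 328 of 6019 genes in all (5.45%). The Fhl1 motif GACGCA was found before 6 of the 56 (10.7%, against 10.9% of all genes), the PAC element GATGAG before 12 (21.4%, against 28.2%) and a run of 8 T or 8 A before 21 (37.5%, against 44.3%), each on either strand. These are counts of exact matches to short motifs, and binding of Rap1 or Fhl1 was not measured. No coordinates are given, because the build used for the counts is not known from the labels. The stretches shown come from RPS2, a gene with no partner, and from the RPS16 pair, in which each copy holds the core in both orientations. Capitals mark the core.
RPS2: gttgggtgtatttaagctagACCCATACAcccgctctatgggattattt
RPS16A: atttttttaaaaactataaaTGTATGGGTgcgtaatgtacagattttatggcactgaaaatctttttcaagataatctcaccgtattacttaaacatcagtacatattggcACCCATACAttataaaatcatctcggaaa
RPS16B: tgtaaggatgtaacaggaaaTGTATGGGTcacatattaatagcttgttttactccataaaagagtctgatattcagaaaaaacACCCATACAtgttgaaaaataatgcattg
They read towards the start codon on the coding strand, from base -408 to -360 before it for RPS2 (chromosome VII), -418 to -279 for RPS16A (chromosome XIII) and -445 to -334 for RPS16B (chromosome IV). In both RPS16 copies the core farther from the gene lies on the opposite strand. The 18 genes with the core had a median level of 4087 CPM per unique kb (defined below) and the other 38 one of 4355. The 38 lack only an exact match within the 500 bases and may still bind Rap1. The medians therefore do not compare genes with and without Rap1.

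Of the 56 genes, 36 have an annotated intron, of 256 to 551 bases with a median of 408.5 bases, against a median of 141 bases over the 281 introns of the nuclear annotation. The usual opening GTATGT was present in 24 of the 36 (66.7%, against 73.0% of all introns) and the usual branch sequence TACTAAC in 33 (91.7%, against 82.6%). RPS9 and RPS14 are shown because their copies were the most unequal in level, and because introns of RPS9A and RPS14B are known targets of feedback by the Rps9 and Rps14 proteins. Capitals mark the 2 usual motifs where they occur.
RPS9A intron bases 1 to 30: gtacgtcgttaatcttctccttttaagggg
RPS9B intron bases 1 to 30: gtacgtattagactatatcgaagaggaggg
RPS14A intron bases 1 to 30: GTATGTttaatcacatagtgaacattttta
RPS14B intron bases 1 to 30: gtacgtgaaaggggtgatatcctgtttaaa
RPS14A intron bases 243 to 307: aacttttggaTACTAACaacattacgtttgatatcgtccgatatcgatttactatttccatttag
RPS14B intron bases 368 to 408: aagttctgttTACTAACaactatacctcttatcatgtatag
These introns lie on chromosomes XVI (RPS9A), II (RPS9B), III (RPS14A) and X (RPS14B). RPS14A opens with GTATGT and the other 3 with GTACGT, and neither RPS9 intron holds TACTAAC, which among the 36 is otherwise missing from RPS21A alone.

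The copies of a pair are close to identical, which bears on how reads can be assigned. Their proteins, translated from R64 coding sequences, are the same in 9 pairs (among them RPS4, RPS6, RPS16, RPS18, RPS23, RPS24 and RPS30), differ by 1 residue in 7 and by more in 8, up to 23 residues in RPS7. Coding identity runs from 84.3% in RPS27 to 99.2% in RPS6, whose copies differ at 6 bases. The RPS28 copies, on chromosomes XV and XII, differ at 24 of their 204 coding bases (in capitals) and are shown whole because their ratio differed most between strains.
RPS28A: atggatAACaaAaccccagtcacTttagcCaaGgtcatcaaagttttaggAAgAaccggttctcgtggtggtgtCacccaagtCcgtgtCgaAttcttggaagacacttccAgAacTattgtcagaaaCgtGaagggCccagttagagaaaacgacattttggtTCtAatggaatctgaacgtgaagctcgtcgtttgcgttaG
RPS28B: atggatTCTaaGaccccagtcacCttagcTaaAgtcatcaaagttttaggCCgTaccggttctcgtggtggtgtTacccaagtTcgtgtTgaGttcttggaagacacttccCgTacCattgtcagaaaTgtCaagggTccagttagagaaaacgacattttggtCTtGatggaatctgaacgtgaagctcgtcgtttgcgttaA
A stretch of 50 bases was unique in the genome at every coding position of 26 of the 56 genes, and a stretch of 100 bases in 48. Among the least unique were both copies of RPS6 (28.0% of positions at 50 bases), RPS4 (53.2%) and RPS24 (61.8%). Levels are therefore compared between genes as CPM per unique kb, meaning CPM per kb of coding sequence divided by the share of positions unique at 50 bases. Read length is not stated by the labels, so this correction is approximate.

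Of gene counts, the small-subunit genes took 9.93 ± 0.688% in K467N, 10.5 ± 0.426% in K467R and 10.1 ± 0.660% in WT (SD, n = 6 each). The libraries of the 3 strains overlapped. By CPM per kb without the correction, 36 of the 56 were among the highest 100 of 5472 tested genes and 51 among the highest 200, with ranks from 5 to 393. In CPM per unique kb, the level spanned 31.99-fold from the lowest to the highest of the 56 genes.

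RPS31 (YLR167W), which encodes ubiquitin fused to a protein of the beak of the subunit, was the highest gene at 13154 ± 1446 CPM per unique kb in K467N, 14705 ± 1185 CPM per unique kb in K467R and 13674 ± 1304 CPM per unique kb in WT. Its lowest, median and highest libraries had 4913, 6277 and 6732 CPM in K467N, 5898, 6767 and 7482 CPM in K467R and 5456, 6473 and 6909 CPM in WT. RPS12 (YOR369C), another beak protein, came next at 9360.0 ± 896 CPM per unique kb in K467N, 9898 ± 640.0 CPM per unique kb in K467R and 9724 ± 1040.3 CPM per unique kb in WT, with 3439.8, 4276 and 4309 CPM in K467N, 3890.1, 4272 and 4699 CPM in K467R and 3644, 4276 and 4716 CPM in WT. Both are single genes, and in each of them the libraries of the strains overlapped. The lowest were minor copies of pairs. RPS9A (YPL081W), for a body protein that affects decoding accuracy, had 411 ± 27.4 CPM per unique kb in K467N, 471 ± 36.2 CPM per unique kb in K467R and 417 ± 30.1 CPM per unique kb in WT. RPS14B (YJL191W), for a platform protein, had 653 ± 62.3 CPM per unique kb in K467N, 713 ± 76.1 CPM per unique kb in K467R and 654 ± 72.2 CPM per unique kb in WT, or 205, 252 and 260.2 CPM in K467N, 245, 255 and 319 CPM in K467R and 203, 245 and 270.0 CPM in WT. RPS22B (YLR367W), for a body protein, had 1091 ± 86.8 CPM per unique kb in K467N, 1174 ± 62.4 CPM per unique kb in K467R and 1132 ± 133 CPM per unique kb in WT, or 381, 449 and 453 CPM in K467N, 423, 459 and 495 CPM in K467R and 374, 464 and 492 CPM in WT. The strains overlapped in these genes too.

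When the copies of a pair were added, the spread between proteins was far smaller. The summed level spanned 2.64-fold, from 5244 CPM per unique kb for RPS7 to 13844 for RPS31 (means of 18 libraries), and all 32 proteins lay within 2-fold of their median of 7664. In single libraries the span was 2.42-fold to 2.86-fold. The 8 single genes had a median of 7771 and the 24 pairs, summed, one of 7664, so a gene without a partner stood about as high as the sum of a pair. The span depends on the correction for repeated sequence: it was 3.64-fold with uniqueness taken at 100 bases, where RPS4 became lowest, and 7.34-fold with no correction, where 29 of 32 proteins lay within 2-fold of the median.

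**Figure D1:**
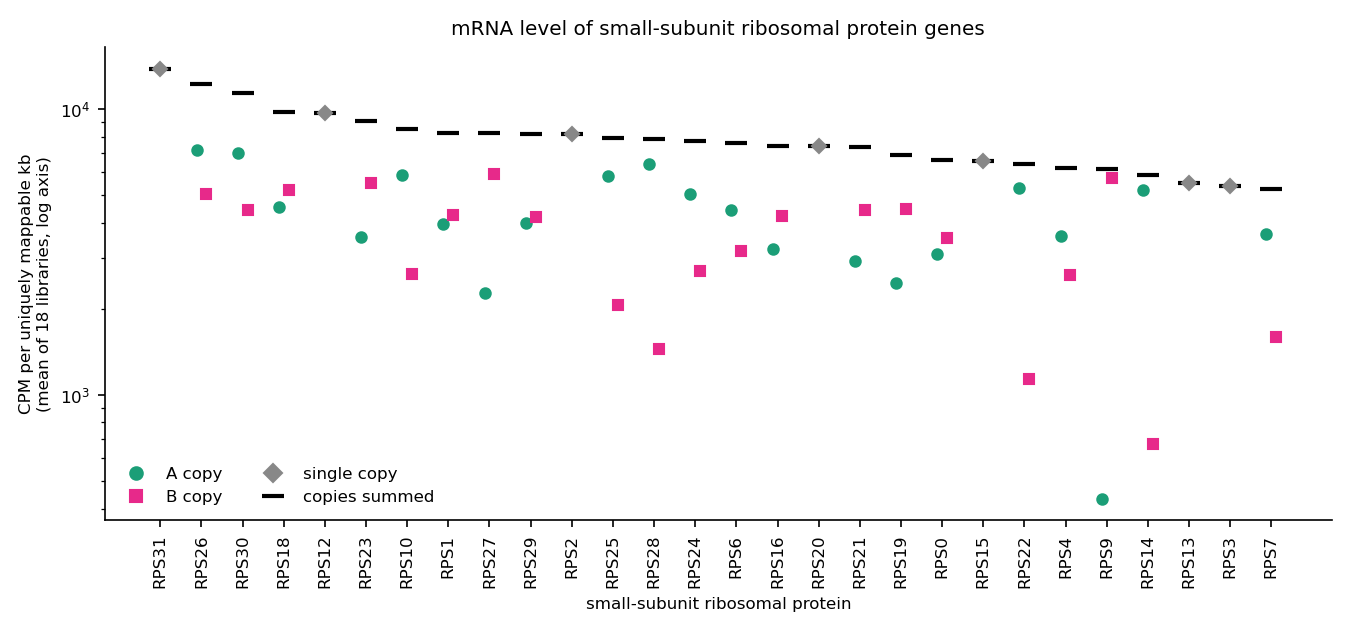
Mean level over 18 libraries of 49 of the genes in CPM per unique kb (log axis), by protein (28 shown) in order of the summed level. Circles are A copies, squares B copies, diamonds genes without a partner and black bars the copies summed. From the lowest to the highest of all the genes the level spans 31.99-fold, and the bars span 2.64-fold.

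Summed levels were also set out by place in the subunit, all in CPM per unique kb as means of 18 libraries. The median was 7875 over 14 head proteins and 7474 over 18 body proteins, and 7369 over 15 proteins also found in bacteria and 7855 over 17 that are not. Around the mRNA entry, RPS3 (5359) and RPS2 (8149.9) stood beside RPS30 (11397). RPS23, whose protein reaches the decoding centre, had 9047. On the platform and at the mRNA exit, RPS26 (12233), RPS1 (8220.3), RPS27 (8205) and RPS28 (7855) were above RPS14 (5859). In the beak and the head near it, RPS31 (13844) and RPS12 (9661) were above RPS10 (8534), RPS29 (8182) and RPS20 (7392). Elsewhere in the head, RPS18 had 9756, RPS25 7896, RPS16 7435, RPS19 6913 and RPS15 6591. RPS6, whose protein is phosphorylated in response to nutrients, had 7599, beside RPS24 (7729) and RPS4 (6209) of the body. The partners RPS0 and RPS21, which sit together on the solvent side, had 6645 and 7372, and RPS22 (6413), RPS9 (6161), RPS13 (5496) and RPS7 (5244) were in the lower part of the range. Per gene, the 36 with an intron had a median of 3621 and the 20 without one 5320.1. Among the single genes only RPS13 has an intron, and per gene the median was 7771 for single genes, 4219 for A copies and 3414 for B copies. Intron and copy number are therefore mixed in the first 2 medians, and their parts were not tested.

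Copies of a pair differed by a median of 1.56-fold in counts, with the A copy higher in 14 pairs and the B copy in 10. The copies differed by over 2-fold in 8 pairs, and the same copy was higher in all 18 libraries in 23 of 24. RPS9 was the most unequal at 13.1-fold, and the A copy took 6.98 ± 0.246% in K467N, 7.36 ± 0.288% in K467R and 6.95 ± 0.0748% in WT. RPS14 followed at 7.64-fold, with 88.3 ± 0.145% in K467N, 88.3 ± 0.410% in K467R and 88.7 ± 0.269% in WT on the A copy. Next came RPS22 at 4.66-fold, with 82.4 ± 0.455% in K467N, 82.2 ± 0.511% in K467R and 82.4 ± 0.291% in WT on the A copy. These shares varied by well under 1 percentage point (SD) between libraries of a strain. The other pairs over 2-fold were RPS28 (4.39-fold, A higher), RPS25 (2.82-fold, A higher), RPS27 (2.62-fold, B higher), RPS7 (2.30-fold, A higher) and RPS10 (2.21-fold, A higher).

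At the other end, RPS29 copies were 1.05-fold apart, with 48.7 ± 0.932% in K467N, 49.0 ± 1.18% in K467R and 48.6 ± 0.819% in WT on the A copy, and RPS29 was the exception to a constant higher copy, through 50.7% in K467R 2. RPS1 copies were 1.07-fold apart (48.2 ± 0.619% in K467N, 47.9 ± 0.281% in K467R and 48.5 ± 0.446% in WT on the A copy) and RPS0 copies 1.14-fold (46.4 ± 0.465% in K467N, 46.8 ± 0.396% in K467R and 46.7 ± 0.542% in WT). Over the 18 libraries the A share of a pair ranged over a median of 2.01 percentage points, and that of RPS10 ranged widest, over 7.09 points.

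**Figure D2:**
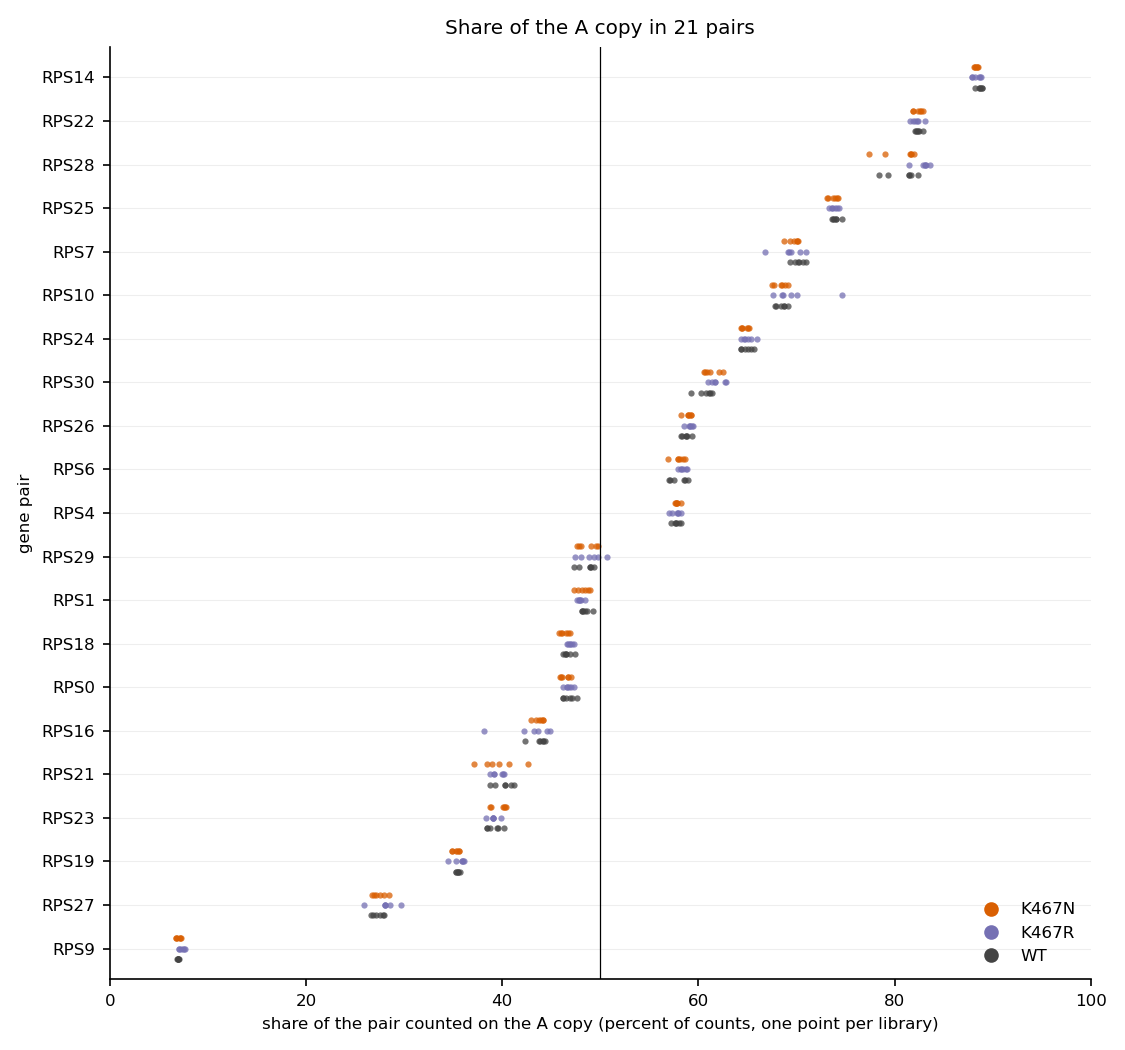
Share of a pair's counts on the A copy in 21 pairs, in percent, with 1 point per library for K467N (upper row of each pair), K467R (middle row) and WT (lower row). RPS9 is at 6.71 to 7.69% and RPS14 at 87.9 to 88.9%, and in every pair the points of the strains overlap.

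In K467N against WT, 0 of the 56 genes passed the test (edgeR quasi-likelihood, Benjamini-Hochberg adjusted p under 0.05; 0.0707% of all 5660 genes did). Unadjusted, 0 were below 0.05, beside 1.15% of all genes (0.565% higher and 0.583% lower). All 56 log2 fold changes were slightly below 0, from -0.09 for RPS23B to -0.0038 for RPS14B, with a median of -0.05 against 0.0003 over all genes. Of all genes 50.2% were above 0. The members moved together from library to library, so such counts are not separate observations in this or the next comparisons. RPS20 (YHL015W), for a head protein, had the smallest p, with a lowest, median and highest level of 2322, 2645 and 2852 CPM in K467N, against 2476, 2796 and 2988 CPM in WT. Its log2 fold change was -0.07 ± 0.06 (SE; edgeR adjusted p = 0.999), and over the alternatives it ran from -0.10 to -0.03, nearest 0 without K467N 2, and was -0.05 without WT 5. The strains overlapped over most of their range, and no member had libraries that did not overlap (0.124% of all genes had). The 95% intervals of the 56 lay between -0.29 and 0.17. Without K467N 2 the median was 0.0044, with 33 of 56 above 0. The number above 0 was 9 without K467N 4, 10 without WT 1, 7 without WT 5, 5 without WT 6 and 21 with 2 surrogate variables, where the median was -0.01.

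In K467R against WT, 0 of 56 passed as well (edgeR adjusted p under 0.05; 0.0707% of all genes did), and 55 of 56 values were above 0. Of all genes 46.9% were above 0. The median was 0.09 against -0.01 over all genes, and the values ran from -0.01 for RPS20 to 0.20 for RPS28A. Unadjusted, 2 members (3.57%) were below 0.05, both higher in K467R, beside 5.67% of all genes (2.46% higher and 3.22% lower). RPS9A, the minor copy of its pair, had the smallest p, at 243, 261 and 293 CPM in K467R, against 211, 242 and 249.7 CPM in WT (lowest, median and highest). In 4 of 6 K467R libraries it was above every WT library, and the log2 fold change was 0.18 ± 0.06 (edgeR adjusted p = 0.747), or 0.11 with 2 surrogate variables. Neither RPS9A nor any other member had strains that did not overlap (0.283% of all genes had). The 95% intervals of the 56 lay between -0.16 and 0.42. The count of 2, with the percentage of all genes below 0.05 in the same fit in parentheses, was 1 without K467R 1 (3.33%), K467R 5 (3.86%), K467R 6 (5.08%), WT 2 (3.46%), WT 3 (3.28%) or WT 4 (4.88%), 4 without WT 5 (7.12%), 7 without K467R 3 (8.31%), 8 without K467N 2 (7.04%) and 10 without WT 1 (6.44%). With 2 surrogate variables it was 15 (10.1%), 10 of them higher in K467R. Without K467R 1 the median was 0.06, and with 2 surrogate variables in the fit it was 0.0039, with 31 of 56 above 0.

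The 2 substitutions were also set against each other, and in K467N against K467R 0 of 56 passed (edgeR adjusted p under 0.05; 0.0177% of all genes did). All 56 values were below 0, with a median of -0.14 against 0.01 over all genes, from -0.25 for RPS28A to -0.04 for RPS28B. Of all genes 52.5% were above 0. Unadjusted, 13 members (23.2%) were below 0.05, all lower in K467N, beside 11.2% of all genes (5.85% lower and 5.37% higher). They included RPS6B, RPS9A, RPS15, RPS23A, RPS23B, RPS25A, RPS26A, RPS28A, RPS29A, RPS29B and RPS30A. RPS9A had the smallest p, at 208, 232 and 254 CPM in K467N, against 243, 261 and 293 CPM in K467R, and a log2 fold change of -0.20 ± 0.06 (edgeR adjusted p = 0.408), or -0.10 with 2 surrogate variables. RPS23B (YPR132W), for a protein of the decoding centre, had 1504, 2022 and 2115 CPM in K467N, against 1984, 2243 and 2480.2 CPM in K467R, and -0.22 ± 0.09 (edgeR adjusted p = 0.408). For RPS23B the value was -0.06 with 2 surrogate variables and -0.12 without K467R 1 and K467N 2 together. The strains overlapped in both genes and in all other members (0.283% of all genes did not overlap). The 95% intervals of the 56 lay between -0.47 and 0.10. The count of 13, with the percentage of all genes in parentheses as before, was 1 without K467N 2 (4.11%), K467N 4 (5.64%), K467R 1 (4.81%) or K467R 5 (5.89%), 5 without K467R 6 (8.71%), 7 without K467R 2 (10.6%), 22 without WT 3 (12.3%), 23 without K467N 6 (15.3%), 24 without K467R 4 (21.2%), 29 without K467R 3 (19.6%) and 31 without K467N 5 (21.4%). It was 5 (10.6%) with upper-quartile scaling and 7 (12.5%) by total counts. With 2 surrogate variables the median was -0.01, with 18 of 56 above 0 and 5 at an unadjusted p under 0.05 (6.15% of all genes). Since the members moved together from library to library, the 13 are not separate observations.

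**Figure D3:**
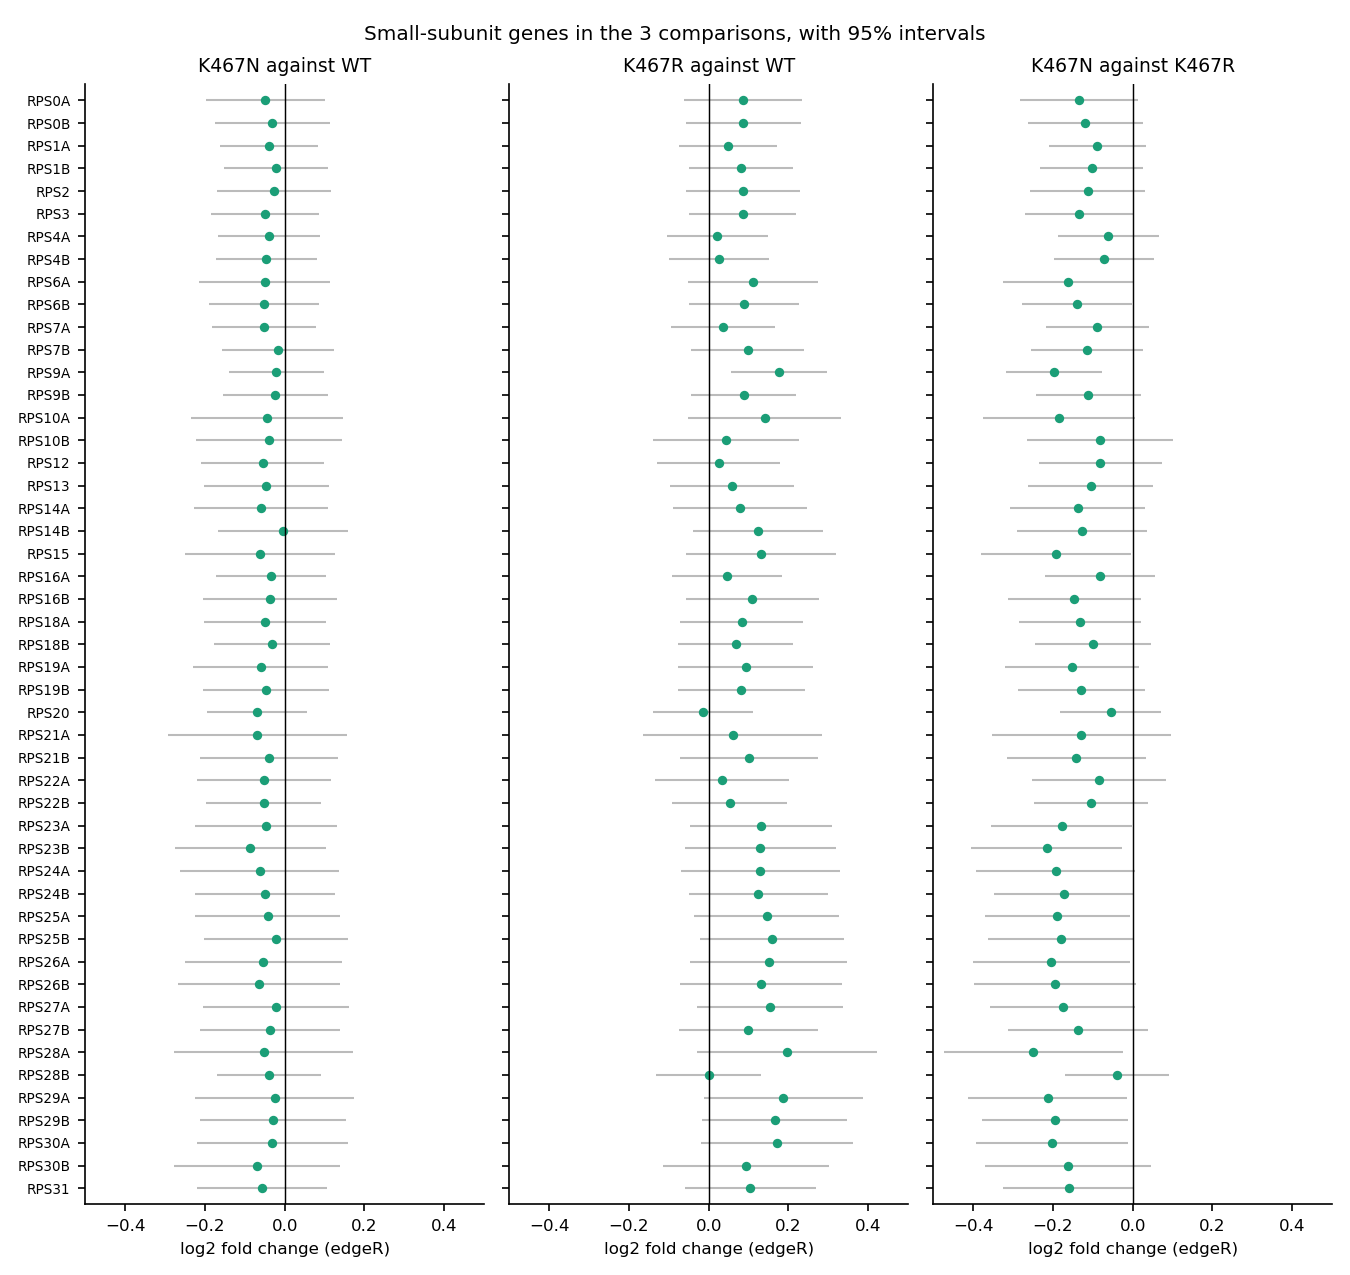
Log2 fold changes (points) of 49 of the genes with 95% intervals (lines) from edgeR, for K467N against WT, K467R against WT and K467N against K467R. Points are below 0 for 49 genes in the left panel, above 0 for 48 in the middle and below 0 for 49 on the right, and 0 genes passed in any panel; the left and middle comparisons share the WT libraries.

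A shift of the same size in both copies cancels in their ratio, so ratios of the A to the B copy were tested with limma across 128 paralog pairs of the genome. An unequal shift does not cancel: the SD of log2 CPM within strains was 0.212 for RPS28A and 0.115 for RPS28B. None of the 24 small-subunit pairs passed. In all, 0% of the 128 were called in K467N against WT, 0% in K467R against WT and 0.781% in K467N against K467R. Unadjusted, the pairs below 0.05 numbered 0, 5 and 3 of the 24 in those comparisons, beside 3.12, 16.4 and 9.38% of the 128. In K467N against WT the smallest p was that of RPS14, whose A share had a lowest, median and highest value of 88.1, 88.2 and 88.4% in K467N, against 88.2, 88.7 and 88.9% in WT, and a difference in log2 ratio of -0.06 ± 0.03 (limma adjusted p = 0.986). RPS23 followed, with 38.7, 40.1 and 40.4% in K467N, against 38.4, 39.1 and 40.2% in WT on the A copy and a difference of 0.04 ± 0.02 (limma adjusted p = 0.986). In K467R against WT the RPS9 pair had 7.02, 7.40 and 7.69% in K467R, against 6.82, 6.95 and 7.03% in WT on the A copy and a difference of 0.09 ± 0.03 (limma adjusted p = 0.0931). RPS9 was above every WT library in 5 of 6 K467R libraries, and so was RPS30, a protein near the mRNA entry, with 60.96, 61.7 and 62.8% in K467R, against 59.3, 60.9 and 61.3% in WT and a difference of 0.08 ± 0.03 (limma adjusted p = 0.0931). The lowest of the 5 was barely above the highest WT library in both pairs. It had 7.0344% in K467R 6 against 7.0339% in WT 1 for RPS9, and 61.38% in K467R 3 against 61.33% in WT 4 for RPS30. In K467N against K467R the RPS9 difference was -0.08 ± 0.03 (limma adjusted p = 0.317). In K467R against WT, leaving out 1 library or changing a setting gave adjusted p-values of 0.0681 to 0.193 for RPS9 and 0.0629 to 0.247 for RPS30 in limma, and in K467N against K467R 0.213 to 0.495 for RPS9. Over the 24 pairs the 95% intervals of the differences lay between -0.17 and 0.13 in K467N against WT, -0.16 and 0.35 in K467R against WT, and -0.37 and 0.16 in K467N against K467R.

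The RPS28 pair had the largest difference in ratio. Its protein sits at the mRNA exit, and Rps28 is known to limit RPS28B by binding the end of that mRNA together with the decapping factor Edc3. The lowest, median and highest A shares were 77.4, 81.6 and 81.9% in K467N, 81.4, 83.1 and 83.6% in K467R and 78.4, 81.5 and 82.3% in WT. In 5 of 6 K467R libraries the share was above that of every library of either other strain. The log2 ratio differed by -0.22 ± 0.07 (limma adjusted p = 0.252) in K467N against K467R and by 0.20 ± 0.07 (limma adjusted p = 0.102) in K467R against WT. RPS28A (YOR167C) alone had 898, 1285 and 1414 CPM in K467N, 1218, 1458 and 1767 CPM in K467R and 1046, 1288 and 1439 CPM in WT, with a log2 fold change of -0.25 ± 0.11 (edgeR adjusted p = 0.408) in K467N against K467R. RPS28B (YLR264W) had 262, 289.7 and 318 CPM in K467N, 263, 294 and 359 CPM in K467R and 273, 299 and 323 CPM in WT, and -0.04 ± 0.06 (edgeR adjusted p = 0.732). The libraries of the strains overlapped widely in both genes. The A share was lowest in libraries with few small-subunit counts as a whole: 77.4% in K467N 2, 79.0% in K467N 4, 81.4% in K467R 3, 78.4% in WT 2 and 79.3% in WT 3. K467R 4, also low in small-subunit genes, was an exception at 83.0%. The part of this shift in the difference between strains was not tested.

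Within a strain the small-subunit genes moved together from library to library. The SD of log2 CPM within strains had a median of 0.150 over the 56 genes, against 0.121 over all genes and 0.101 over the 675 genes at least as high as the lowest member. Of the within-strain variance of the 56, 88.0% was shared as 1 shift per library, and with that shift removed the median SD was 0.0461. All 56 genes were below the strain mean in K467N 2 (median deviation of log2 CPM over the 56 -0.245), K467N 4 (-0.121), K467R 3 (-0.146), WT 2 (-0.174) and WT 3 (-0.204). All 56 were above it in K467N 5 (0.160), K467N 6 (0.106), WT 1 (0.143), WT 5 (0.121) and WT 6 (0.0835), and 51 of 56 in K467R 1 (0.183). Each strain thus had libraries on both sides.

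The most variable gene was RPS21A (YKR057W), for a small body protein (SD 0.213), with lowest, median and highest levels of 550.2, 750.4 and 879 CPM in K467N, 704, 812 and 901 CPM in K467R and 601, 805 and 897 CPM in WT. RPS28A was close to it (SD 0.212). The least variable were RPS20 (SD 0.104), which had 2486, 2765 and 2932 CPM in K467R, and RPS1A (YLR441C), for a platform protein (SD 0.0987), with 2505, 2888 and 3076 CPM in K467N, 2777, 3092 and 3170.2 CPM in K467R and 2669.8, 3016 and 3141 CPM in WT.

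Large-subunit genes moved in the same way, with median deviations from -0.258 in K467N 2 to 0.217 in K467R 1. So did the 1339 other tested genes with a coding length of up to 786 bases, that of the longest small-subunit gene, from -0.151 in K467N 2 to 0.0963 in K467N 5. The 3995 longer genes moved the other way in those libraries, by 0.0525 in K467N 2 and -0.0381 in K467N 5. Of 24 general stress genes 23 were tested, and their median deviation ran from -0.104 in K467R 4 to 0.124 in K467R 1, with summed levels of 1081 to 1286 CPM. The part of these in the shift was not tested. These values are shares of the RNA of a culture, so fewer cells of a kind and less RNA per cell cannot be told apart.

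**Figure D4:**
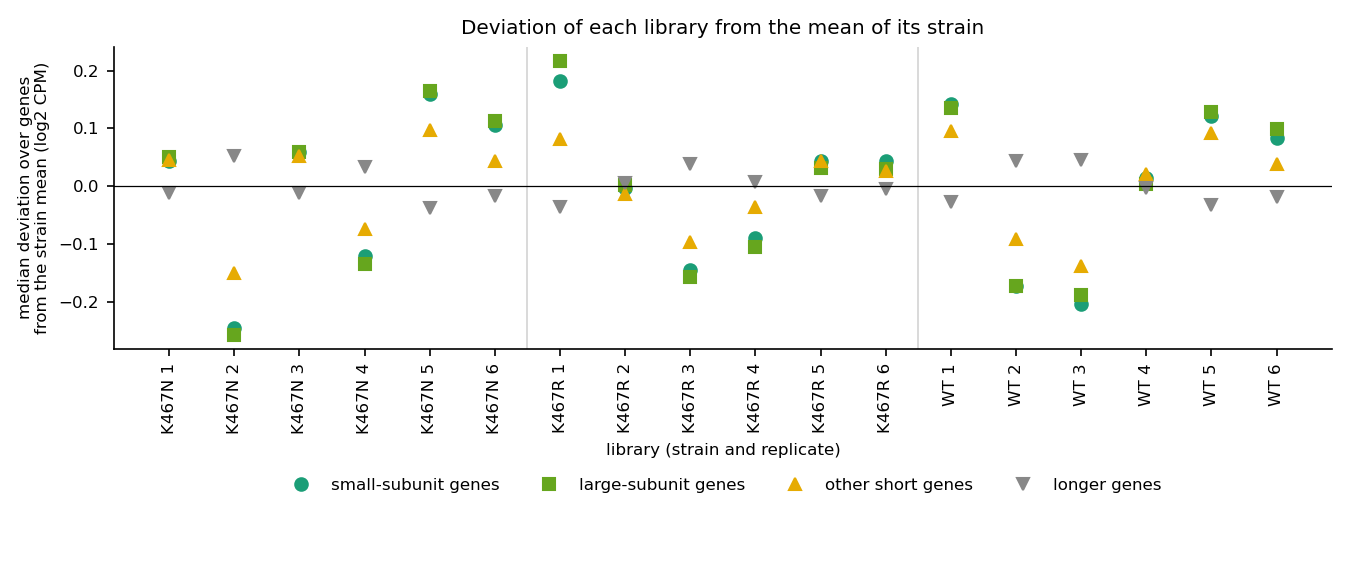
Median deviation over genes of log2 CPM from the strain mean in each library (K467N, K467R and WT from left to right) for the 56 small-subunit genes (circles), 82 large-subunit genes (squares), 1339 other short genes (upward triangles) and 3995 longer genes (downward triangles). The small-subunit genes run from -0.245 in K467N 2 to 0.183 in K467R 1, with the longer genes on the other side of 0 in both.

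The largest shifts in the balance of copies were in K467R 1, but only in some pairs. Over the 24 pairs its median shift, regardless of sign, was 0.56 points, beside 0.615 in K467N 2 and 0.563 in WT 1. Of 432 values (24 pairs in 18 libraries), 5 lay over 3 percentage points from the mean of the other 5 libraries of the strain, and 3 of them were in K467R 1. There RPS10, a beak protein, had 74.6% on the A copy (5.74 points above that mean), RPS16, a head protein, 38.1% (a deviation of -5.54 points) and RPS7, a body protein, 66.8% (-3.02 points). RPS10B, RPS16A, RPS22A and RPS22B were among 5 members below the strain mean in this library, although the other 51 members were above it. The other 2 values over 3 points were RPS28 in K467N 2 (-3.77) and RPS21 in K467N 3 (3.61).

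**Figure D5:**
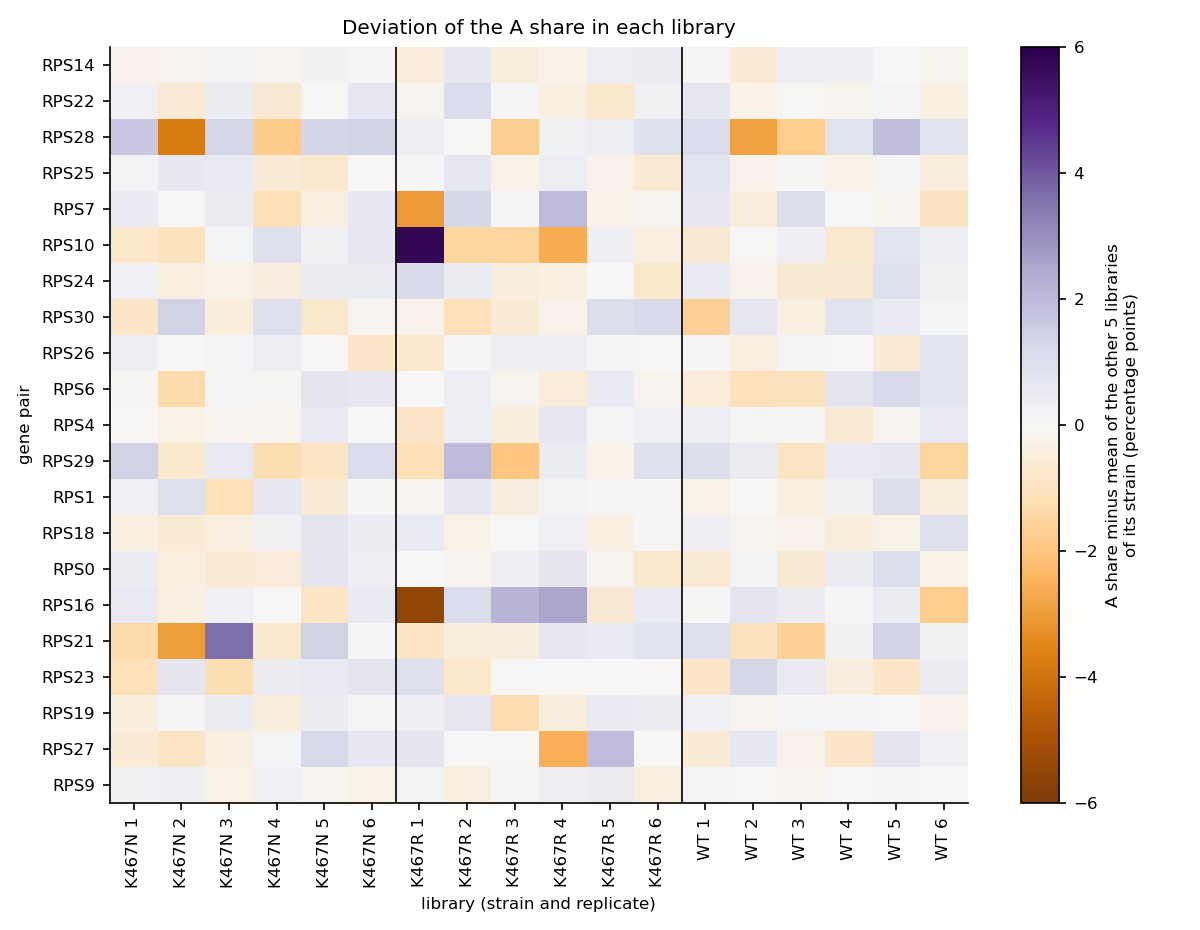
A share of 21 pairs in each library minus the mean of the other 5 libraries of its strain, in percentage points (purple above, orange below). The darkest cells are RPS10 (5.74) and RPS16 (-5.54) in K467R 1, and RPS28 is at -3.77 in K467N 2, -2.88 in WT 2 and -1.72 in K467R 3.

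Genes that assemble, regulate or accompany the small subunit were counted the same way, and in edgeR 0 of any list passed in any comparison. Over all genes, 0.0707% passed in K467N against WT, 0.0707% in K467R against WT and 0.0177% in K467N against K467R. Those with an unadjusted p under 0.05 in edgeR were 1.15, 5.67 and 11.2% of all genes, in that order. Of 82 large-subunit genes, 5 were above 0 in K467N against WT (median -0.05), 82 in K467R against WT (0.10) and 1 in K467N against K467R (-0.14), with 0, 4 and 16 at an unadjusted p under 0.05. Smallest in p were RPL41A at -0.17 ± 0.13 (edgeR adjusted p = 0.999) in K467N against WT, RPL34A at 0.20 ± 0.09 (edgeR adjusted p = 0.747) in K467R against WT and RPL39 at -0.27 ± 0.11 (edgeR adjusted p = 0.408) in K467N against K467R. Of 65 assembly factors, 42 were above 0 in K467N against WT (median 0.01), 42 in K467R against WT (0.03) and 27 in K467N against K467R (-0.01), with 0, 5 and 6 at an unadjusted p under 0.05. BUD21, of the early processome, was at 0.14 ± 0.05 (edgeR adjusted p = 0.747) in K467R against WT. FAP7, an ATPase that acts on Rps14, was at -0.20 ± 0.06 (edgeR adjusted p = 0.408) in K467N against K467R. Of 4 dedicated chaperones (YAR1 for Rps3, TSR4 for Rps2, TSR2 for Rps26, and NAP1), 0 were above 0 in K467N against WT (median -0.03), 4 in K467R against WT (0.09) and 0 in K467N against K467R (-0.11), with 0, 0 and 1 at an unadjusted p under 0.05. YAR1 was at 0.11 ± 0.06 (edgeR adjusted p = 0.747) in K467R against WT and -0.15 ± 0.06 (edgeR adjusted p = 0.408) in K467N against K467R. The 3 genes for proteins that associate with the subunit (ASC1, STM1 and MBF1) lay on the same side as the members, with ASC1, the receptor for activated C kinase homologue on the head, at -0.02 ± 0.06 (edgeR adjusted p = 0.999) in K467N against WT. Of 23 stress genes, 9 were above 0 in K467N against WT (median -0.04), 10 in K467R against WT (-0.06) and 10 in K467N against K467R (-0.01), with 0, 4 and 1 at an unadjusted p under 0.05. In K467R against WT the smallest p-values were those of YGP1 at -0.18 ± 0.06 (edgeR adjusted p = 0.747) and MSC1 at -0.17 ± 0.05 (edgeR adjusted p = 0.747).

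Among 16 regulators of ribosomal protein genes, 9 were above 0 in K467N against WT (median 0.01), 8 in K467R against WT (-0.0011) and 8 in K467N against K467R (-0.01). At an unadjusted p under 0.05 in edgeR there were 0, 1 and 1, beside 1.15, 5.67 and 11.2% of all genes. RAP1 had 138 ± 4.34 CPM in K467N, 142 ± 7.58 CPM in K467R and 141 ± 4.68 CPM in WT. FHL1, the forkhead-like factor at these promoters, had 67.9 ± 4.60 CPM in K467N, 64.1 ± 4.31 CPM in K467R and 65.9 ± 4.34 CPM in WT, and its coactivator IFH1 had 93.8 ± 8.42 CPM in K467N, 89.0 ± 9.22 CPM in K467R and 93.3 ± 9.79 CPM in WT. SFP1, which responds to TOR, had 83.6 ± 6.35 CPM in K467N, 80.8 ± 5.93 CPM in K467R and 82.3 ± 6.77 CPM in WT. HMO1, the high-mobility group protein, had 244 ± 17.7 CPM in K467N, 255 ± 25.2 CPM in K467R and 256 ± 13.1 CPM in WT. None of these 5 passed (lowest edgeR adjusted p = 0.441, FHL1 in K467N against K467R). CRF1, a corepressor that competes with Ifh1, was scarce at 0.882 ± 0.349 CPM in K467N, 1.001 ± 0.339 CPM in K467R and 0.990 ± 0.309 CPM in WT. ESA1, the catalytic subunit of the NuA4 acetyltransferase, had the smallest p of the list, at -0.13 ± 0.05 (edgeR adjusted p = 0.747) in K467R against WT and 0.15 ± 0.05 (edgeR adjusted p = 0.408) in K467N against K467R.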

How the data were processed

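The deposited values are raw counts per gene for 18 libraries, 6 per strain. Per the submitters' processing notes the tools were STAR 2.5.3a, HTSeq 0.6.1p1 and bcl2fastq 2.20.0.422; build, annotation, strand setting and read length are not given. The labels' protocols describe a stranded poly(A) kit with 600 ng of total RNA and 12 cycles of PCR. The 5 HTSeq summary rows of a file name no gene and stayed out of library sizes and tests; 75.3 to 76.2% of sorted reads fell on genes.

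In R 4.3.3, edgeR 4.0.16 (filterByExpr, 5660 genes, TMM, robust quasi-likelihood fit of all 18 libraries by strain) gave two-sided p-values, Benjamini-Hochberg adjusted over all genes at 0.05. Log2 ratios of A to B counts (pseudocount 0.5) were tested in limma 3.58.1 over 128 pairs of at least 80% protein identity over at least 80% of both lengths (BLAST 2.17.0). Proteins were translated from the R64 coding sequences because no protein table was given. The plan had been to give these ratios without a test in that case, and the test was added after the files were seen. All 56 members matched R64 by identifier. Results for some members are not reported here by name or drawn, though counts and medians over the 56 include them.

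The members, gene lists and tests were chosen with earlier results of these data known. Values by library are given for the 3 highest and 3 lowest genes, the 2 most and 2 least variable, the 3 most unequal and 3 most equal pairs and the 2 smallest p-values of each comparison; RPS28B and pairs with shifts over 3 points were named after their values were seen. Alternatives were other scalings (DESeq2 size factors, upper quartile, TMM from other genes, total counts), no filter, DESeq2 1.42.0, limma-voom, 2 surrogate variables (sva 3.50.0), only the 12 libraries compared, and libraries left out. Steps were tested on simulated data. Figures used Python 3.11.15 with matplotlib 3.10.9.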

Additional observations from a re-analysis of the deposited data

Results flagged for a closer look

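In 213 sets of 6 libraries (the summed share, the A share of 21 pairs and the level of 49 genes, by strain), 6 (2.82%) had a highest or lowest library whose gap to the next, over the whole range, passed Dixon's 95% critical value of 0.625. Chance gives about 1 in 20 where sets are independent, but the levels of these genes moved together from library to library. Of the 6, 3 were in K467R 1: the A share of RPS10 (74.6%, nearest library 70.1%), the level of RPS14B (319 CPM, nearest 256 CPM) and the level of RPS29B (908 CPM, nearest 784 CPM). K467R 1 was also the library with the highest median deviation of the members (0.183), so these 2 levels are not separate observations. The A share of RPS28 in K467R 3 was 81.4%, with the nearest library at 82.9%. In K467N 6 that of RPS26 was 58.2%, with the nearest at 58.9%, and in WT 6 that of RPS16 was 42.3%, with the nearest at 43.8%.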

How the results depend on the processing

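Calls stayed at 0 of 56 genes in all 28 alternatives and at 0 of 24 pairs in all 21, the fits without 1 library included. In K467N against WT, K467R against WT and K467N against K467R, in that order here and below, DESeq2 put 0, 2 and 22 genes under an unadjusted p of 0.05 (beside 1.13, 5.81 and 12.6% of all genes) and limma-voom 0, 2 and 16 (1.17, 5.57 and 11.5%). With each library left out in turn the median log2 fold change ran from -0.08 to 0.0044, 0.06 to 0.12 and -0.17 to -0.09. Without K467R 1 and K467N 2 together it was 0.0015, 0.06 and -0.06, and with 2 surrogate variables -0.01, 0.0039 and -0.01. Scaling by total counts gave -0.03, 0.06 and -0.08, beside 0.02, -0.04 and 0.06 for all genes.

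The members' share of counts, in K467N, K467R and WT, was 12.8%, 13.7%, 13.1% of counts on genes other than ribosomal protein genes, and 11.4%, 12.1%, 11.7% without the 10 highest other genes. With each library left out in turn it ran over 9.80 to 10.2%, 10.4 to 10.6% and 9.98 to 10.3%. The span of the 32 proteins was 3.64-fold at 100 bases and 7.34-fold uncorrected, both settings chosen after seeing the data. No paired analysis was possible because the labels give no replicate numbers shared between strains. Levels of RPS6 rest on few unique bases.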
